A study of Rattus norvegicus with 24 samples.

Results

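The NH3+LPS group comprised rats with a portocaval anastomosis (PCA, a surgical shunt that carries portal blood past the liver) that had also received infusions of ammonia and of lipopolysaccharide (LPS, from the outer membrane of bacteria). It was compared with the sham-operated group (Sham), so that the shunt and both infusions differ between the groups at once. The 9 arrays of the comparison, 4 for NH3+LPS and 5 for Sham, were taken from 24 arrays of cerebellum from Sprague-Dawley rats. Every row of the deposited expression table with a single gene symbol was used, 1 row per gene, which gave 18161 genes from 29016 rows. The shunted rats were studied 6 months after surgery, and the 10 infusions, given every 2 weeks, consisted of ammonium acetate at 20 µl/min for 3 h together with LPS at 5 mg/kg. The other shunted groups, with 5 arrays each, received no ammonia or LPS (PCA), ammonia alone (NH3) or LPS alone (LPS). The sources used here do not say whether the numbered samples are separate animals, what the Sham rats were infused with or how old the animals were, so p-values measure the spread between these samples, which may be technical.

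Hepatic encephalopathy is the disturbance of brain function that follows liver failure or shunting of portal blood. Ammonia, which the liver normally turns into urea, reaches the brain and is fixed there into glutamine by astrocytes. LPS is sensed by macrophages and microglia through Toll-like receptor signalling, which induces cytokines, complement and antigen presentation genes. The cerebellum, with its Purkinje and granule neurons, governs motor coordination, which is disturbed in the disorder.

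Expression is given as the authors' log2 values, so a difference of 1 is a doubling, and precision is limited by how many arrays there were. All 18 Purkinje cell markers and all 18 granule cell markers of the lists used were measured, with mean levels over the arrays of 6.31 to 11.72 and of 7.20 to 12.28 on the log2 scale. Some arrays stood apart from the rest. Array 1 of Sham had the highest mean level of brainstem neuron markers (1.17 above the mean of all 24 arrays, in log2 units) and of myelin markers (1.20 above), and the lowest of granule cell markers (-0.57) and Purkinje cell markers (-0.46). Array 3 of NH3+LPS had a mean level of choroid plexus and ependyma markers of 2.35, against -0.73 to -0.52 in the other 3 arrays of its group. Array 2 of Sham and array 1 of NH3+LPS had the lowest means of meninges and fibroblast markers in their groups, at -1.35 and -1.15. In bulk tissue, fewer cells of a type and less RNA per cell cannot be told apart.

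**Figure D1:**
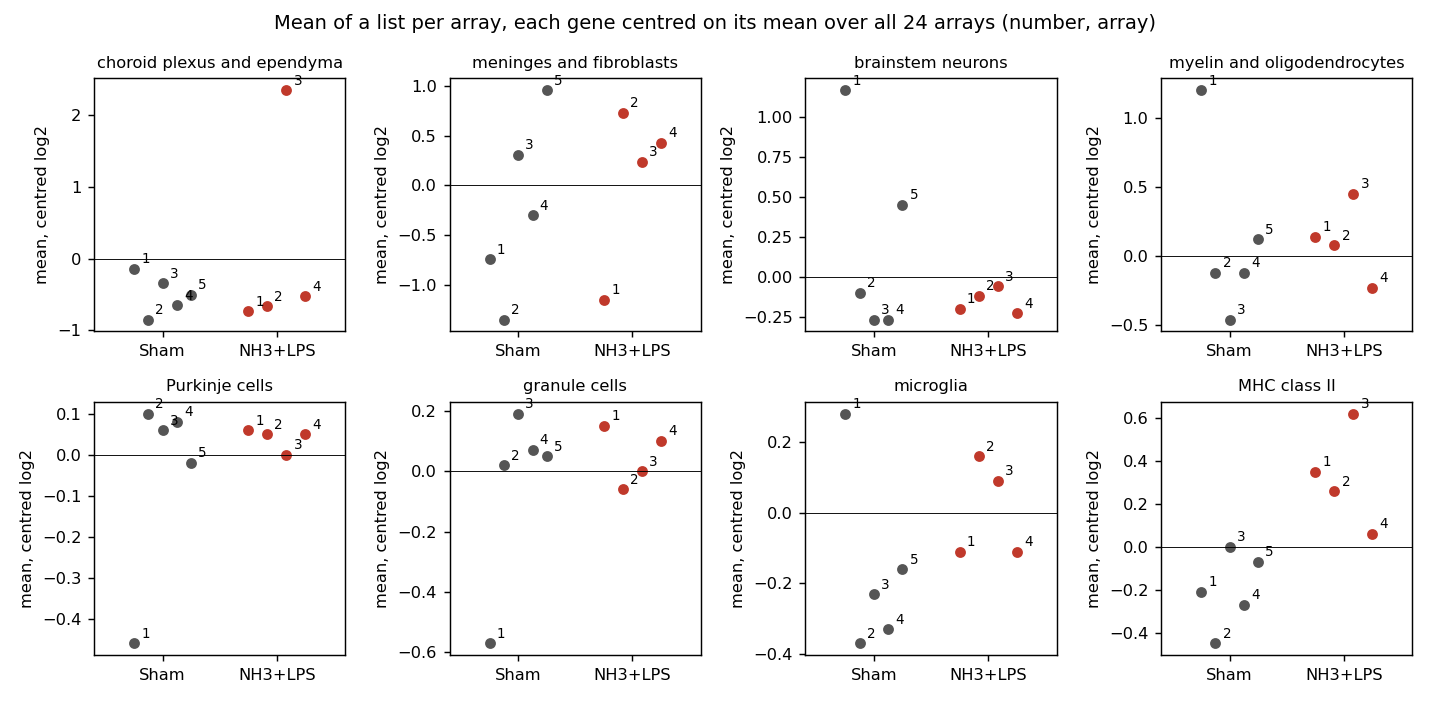
Mean of 8 marker lists in each Sham and NH3+LPS array, after each gene was centred on its mean over all 24 arrays (y axis, log2 units; the number beside a point is the array). Array 1 of Sham lies apart in the brainstem, myelin, Purkinje and granule lists, and array 3 of NH3+LPS lies apart in the choroid plexus list. The MHC class II means run from -0.45 to 0.00 in Sham and from 0.06 to 0.62 in NH3+LPS, a narrow gap. Endoplasmic reticulum chaperones, a list not drawn, also had means without overlap. Those ran from -0.05 to 0.02 in Sham and from -0.15 to -0.08 in NH3+LPS.

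The question of this comparison is how the cerebellum of the full model differed from that of sham-operated rats. No gene passed: limma called 0 of 18161 genes (0%) at an adjusted p of 0.05, and the smallest adjusted p was 0.618. At an unadjusted p under 0.05 there were 315 genes higher in NH3+LPS (1.73%) and 414 lower (2.28%), together 729 or 4.01% of genes. The difference was 0.5 or more on the log2 scale, either way, in 88 genes (0.485%) and 1 or more in 16 genes (0.0881%). In 25 genes (0.138%) all 4 NH3+LPS arrays lay above all 5 Sham arrays, and in 46 genes (0.253%) all lay below. The values that follow therefore describe the genes with the smallest p and the lists of cell types and pathways, none of which is a called change. A choice by small p favours genes whose groups do not overlap. For genes named that way, a lack of overlap describes the values and adds no separate evidence.

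**Figure D2:**
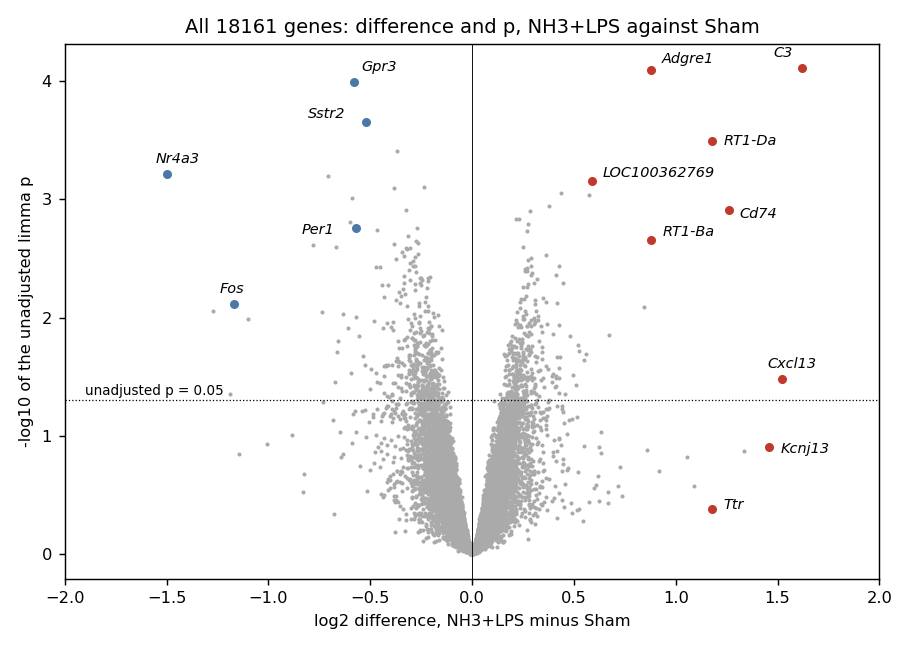
Each point is 1 of 18161 genes, with the log2 difference of NH3+LPS minus Sham on the x axis and -log10 of the unadjusted limma p on the y axis; 14 genes described in the text are coloured and named. No gene passed after adjustment; C3, Adgre1 and Gpr3 had the smallest p, and Ttr and Kcnj13 combine a wide difference with a high p.

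The immune genes C3, Adgre1, Cd74, RT1-Da and RT1-Ba had higher mean levels in NH3+LPS than in Sham, by 0.88 to 1.62 on the log2 scale. C3 encodes the central complement component, which is cleaved onto targets to mark them for phagocytosis. Its log2 levels in the 5 Sham arrays were 8.6, 7.1, 7.6, 7.1 and 7.4, and in the 4 NH3+LPS arrays 9.2, 9.2, 9.4 and 8.9. Every NH3+LPS array was above every Sham array, with array 1 of Sham the nearest. The difference was 1.62 (SE 0.34, 95% interval 0.92 to 2.31), or 3.06-fold, with an unadjusted p of 7.82e-05 and a limma adjusted p of 0.618. It was 1.87 without array 1 of Sham and 1.50 without array 2 of Sham.

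Adgre1 (deposited as Emr1) encodes an adhesion receptor that serves as a macrophage marker in the mouse. Its log2 levels were 5.9, 5.5, 6.0, 5.8 and 5.8 in Sham and 6.2, 6.9, 6.8 and 6.8 in NH3+LPS. The groups did not overlap, and array 1 of NH3+LPS lay closest to Sham. The difference was 0.88 (SE 0.18, limma adjusted p = 0.618) on the log2 scale, higher in 4 of 4 arrays.

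Cd74 encodes the invariant chain, which fills the groove of MHC class II molecules until an antigen peptide replaces it. Its log2 levels were 8.3, 7.9, 9.1, 8.6 and 8.9 in Sham and 9.9, 9.7, 10.4 and 9.3 in NH3+LPS. The groups did not overlap, with array 4 of NH3+LPS just above array 3 of Sham. RT1-Da, an alpha chain of rat MHC class II, lay at 4.8, 4.5, 5.5, 5.4 and 5.3 in Sham and at 6.6, 6.3, 6.7 and 5.5 in NH3+LPS. Array 4 of NH3+LPS equalled the highest Sham array, and the other 3 were above it. RT1-Ba, the alpha chain of the other classical rat class II molecule, lay at 4.6, 4.9, 5.6, 5.1 and 5.4 in Sham and at 6.0, 5.8, 6.6 and 5.6 in NH3+LPS. There too array 4 of NH3+LPS met the highest Sham array. The differences were 1.26 (SE 0.34) for Cd74, 1.18 (SE 0.28) for RT1-Da and 0.88 (SE 0.26) for RT1-Ba on the log2 scale, each with a limma adjusted p of 0.992. Array 3 of NH3+LPS, which carried the choroid plexus markers, was the highest for all 3 genes; without it the differences were 1.07, 1.03 and 0.68, and without it and array 1 of Sham they were 1.01, 0.96 and 0.55. The part of the choroid plexus in these differences was not tested.

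**Figure D3:**
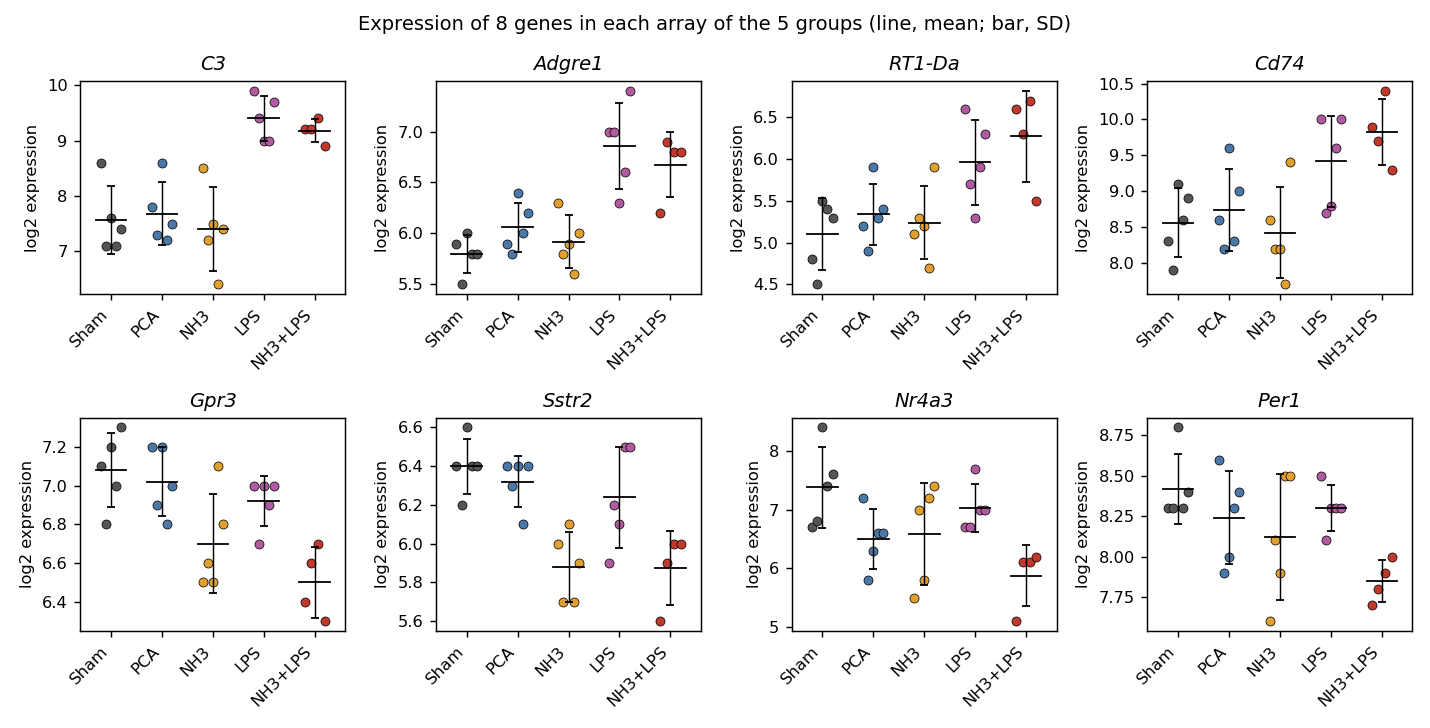
Log2 expression of 8 genes (y axes) in every array of the 5 groups; points are arrays, horizontal lines group means and bars the SD (n = 5, and n = 4 for NH3+LPS). C3, Adgre1, RT1-Da and Cd74 are high in both groups that received LPS, and Gpr3, Sstr2, Nr4a3 and Per1 have their lowest mean, or share it with NH3, in NH3+LPS.

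The MHC class II list had 7 measured members, of which 5 were higher and 2 were not, with a median difference of 0.225 on the log2 scale against a median of 0.00 over all genes. The 3 genes above accounted for all members with an unadjusted p under 0.05. Against the same Sham arrays, 5 members were higher in PCA (median 0.18), 3 in NH3 (-0.02) and 6 in LPS (0.44). The median of NH3+LPS minus PCA was 0.365 for this list. RT1-Db1, a beta chain, lay at 4.8 in each Sham array and at 5.1, 4.7, 5.3 and 5.0 in NH3+LPS, a difference of 0.23 (SE 0.13) that was 0.13 without array 3 of NH3+LPS. RT1-DMa and RT1-DMb, which exchange peptides on class II molecules, differed by 0.00 and 0.20, and Ciita, the master regulator of class II transcription, by -0.09. A row shared by RT1-Bb and LOC688090 differed by 0.60 (SE 0.28) and cannot be assigned to a single gene. Among 10 genes of MHC class I processing, 4 were higher and 6 lower, with a median of -0.015, which was 0.073 without array 1 of NH3+LPS.

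The promoters of the 3 class II genes are shown because they had the smallest p of the list, with sequences from RefSeq (rat build GRCr8, 250 bases before to 50 after the gene's start). The motifs searched, on both strands, were the cyclic AMP response element TGACGTCA, its shorter form TGACG (which every full element also contains), the E-box CACGTG and the CCAAT box CCAAT. Capitals mark the matches.
RT1-Da, chr20:4515165-4515464, plus strand: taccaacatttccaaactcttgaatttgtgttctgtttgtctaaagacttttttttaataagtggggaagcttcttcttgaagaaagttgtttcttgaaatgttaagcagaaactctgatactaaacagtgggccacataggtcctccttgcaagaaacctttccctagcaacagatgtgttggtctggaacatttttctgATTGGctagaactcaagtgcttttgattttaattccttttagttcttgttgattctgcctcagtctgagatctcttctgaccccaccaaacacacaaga
RT1-Ba, chr20:4576807-4577106, plus strand: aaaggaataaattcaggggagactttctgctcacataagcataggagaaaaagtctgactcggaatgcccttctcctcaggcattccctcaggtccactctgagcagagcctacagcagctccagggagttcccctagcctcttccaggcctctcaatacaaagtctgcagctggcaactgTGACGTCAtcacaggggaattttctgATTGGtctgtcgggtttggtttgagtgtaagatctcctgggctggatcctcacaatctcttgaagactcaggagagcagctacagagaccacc
Cd74, chr18:56526956-56527255, plus strand: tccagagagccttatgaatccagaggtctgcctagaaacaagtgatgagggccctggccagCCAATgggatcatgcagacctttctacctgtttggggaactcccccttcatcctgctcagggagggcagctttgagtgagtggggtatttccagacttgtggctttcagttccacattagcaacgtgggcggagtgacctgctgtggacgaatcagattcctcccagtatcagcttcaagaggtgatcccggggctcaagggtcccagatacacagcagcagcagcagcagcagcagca
Each of the 3 windows held 1 CCAAT box, which 37.5% of all 33469 RefSeq promoters of this length also hold, and RT1-Ba held 1 cyclic AMP response element, found in 1.83%. The letters describe these windows and do not show a factor bound there.

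Of 15 measured complement genes, 13 were higher and 2 lower, with a median difference of 0.10 on the log2 scale (0.20 without array 1 of Sham), where 48.3% of all genes were higher and 50% lower. C3 was the only member with an unadjusted p under 0.05 and the only one whose groups did not overlap. C3ar1, the receptor for the C3a fragment, differed by 0.26 (SE 0.16), and C1qa, a chain of the initiator C1q, by 0.30 (SE 0.23) and by 0.52 without array 1 of Sham. The groups overlapped in C3ar1 and C1qa, and the highest C1qa level of either group, 7.2, was in array 1 of Sham. Against the same Sham arrays, 11 complement genes were higher in PCA (median 0.12), 10 in NH3 (0.08) and 14 in LPS (0.50). The median of NH3+LPS minus PCA was -0.015 for these genes.

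Of the 20 microglia markers, 17 were higher and 3 lower in NH3+LPS, with a median difference of 0.153 on the log2 scale. That median was 0.300 without array 1 of Sham and 0.075 without array 2 of Sham. Against the same Sham arrays, 20 markers were higher in PCA (median 0.18), 13 in NH3 (0.06) and 20 in LPS (0.29). The median of NH3+LPS minus PCA was -0.055. P2ry12, a purinergic receptor of resting microglia, differed by 0.29 (SE 0.20), and Ptprc, the leukocyte antigen CD45, by 0.29 (SE 0.25). Without array 2 of Sham both differed by 0.17, and without array 1 of Sham P2ry12 differed by 0.50; a further row of Ptprc differed by 0.03. Adgre1 was the only microglia marker with an unadjusted p under 0.05. Of the 9 perivascular macrophage markers 8 were higher, with a median of 0.26 that was 0.053 without array 2 of NH3+LPS and 0.387 without array 1 of NH3+LPS. Against Sham, 9 of them were higher in PCA (median 0.32), 8 in NH3 (0.18) and 9 in LPS (0.46). For NH3+LPS minus PCA the median of these markers was -0.17. Folr2, a folate receptor of tissue macrophages, lay at 5.7, 5.6, 6.3, 5.7 and 6.4 in Sham and at 5.9, 6.9, 6.3 and 6.9 in NH3+LPS, a difference of 0.56 (SE 0.22). The groups overlapped, and the meninges markers were low in array 1 of NH3+LPS, where Folr2 was lowest; the part of the meninges in this difference was not tested. Cd163, the scavenger receptor for haemoglobin, differed by 0.27 (SE 0.15), or by 0.17 without array 4 of Sham.

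Cxcl13, a chemokine that attracts B cells, had one of the widest differences, 1.52 (SE 0.67, limma adjusted p = 0.992), and one of the widest spreads. Its log2 levels were 4.5, 4.1, 5.9, 5.0 and 6.9 in Sham and 5.5, 7.3, 7.7 and 6.7 in NH3+LPS. The groups overlapped, since array 5 of Sham exceeded 2 NH3+LPS arrays, and the difference was 1.03 without array 1 of Sham and array 3 of NH3+LPS. Ccl2, which attracts monocytes, differed by 0.86 (SE 0.55), and Ccl20, which attracts lymphocytes and dendritic cells, by 0.20 (SE 0.08) at a mean level under 5. Of 18 chemokines 10 were higher and 6 lower, with a median of 0.073 (0.00 without array 2 of Sham and 0.123 without array 1 of NH3+LPS), and of 25 genes of cytokine and NF-kB signalling 16 were higher and 9 lower, with a median of 0.055 (0.013 without array 2 of NH3+LPS and 0.093 without array 1 of NH3+LPS) and no member at an unadjusted p under 0.05. Of 18 lymphocyte and neutrophil markers 8 were higher and 10 lower; Cd4, which rat macrophages also carry, differed by 0.53 (SE 0.21) and was the only one with an unadjusted p under 0.05. A further row of Cd4 differed by 0.16.

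Interferon response genes pointed both ways, 10 higher and 13 lower of 23, with a median difference of -0.08 on the log2 scale, which was 0.05 without array 1 of Sham. Mx2, an antiviral GTPase, lay at 5.8, 5.3, 5.8, 5.4 and 5.3 in Sham and at 4.8, 5.5, 5.1 and 4.8 in NH3+LPS, a difference of -0.47 (SE 0.15). Array 2 of NH3+LPS lay within the Sham range, and the other 3 lay below it. Oas1a, which makes the second messenger that activates RNase L, differed by -0.44 (SE 0.16). Without array 2 of NH3+LPS Oas1a differed by -0.56, and without array 3 of NH3+LPS by -0.29. Leaving out array 3 of NH3+LPS and array 1 of Sham gave -0.23. Rsad2, the antiviral protein viperin, differed by 0.41 (SE 0.19) in the opposite direction, or by 0.25 without array 4 of Sham. Trim21, an antibody receptor and ubiquitin ligase of the cytosol, lay at 5.6, 5.3, 5.3, 5.6 and 5.3 in Sham and at 5.9, 5.8, 6.0 and 5.5 in NH3+LPS, a difference of 0.38 (SE 0.10, limma adjusted p = 0.992). Only array 4 of NH3+LPS overlapped with Sham.

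Gpr3 had the smallest p among the genes lower in NH3+LPS, followed by Sstr2. Gpr3 encodes a receptor that raises cyclic AMP without a known need for a ligand. Its log2 levels were 7.1, 6.8, 7.2, 7.0 and 7.3 in Sham and 6.4, 6.6, 6.7 and 6.3 in NH3+LPS. All 4 NH3+LPS arrays were below all Sham arrays, with a difference of -0.58 (SE 0.12, 95% interval -0.84 to -0.32), a level 0.669 times that of Sham, and a limma adjusted p of 0.618. Sstr2, a somatostatin receptor that lowers cyclic AMP, lay at 6.4, 6.2, 6.6, 6.4 and 6.4 in Sham and at 5.6, 5.9, 6.0 and 6.0 in NH3+LPS. The groups did not overlap, and the difference was -0.52 (SE 0.12, limma adjusted p = 0.992). Pde4d, a phosphodiesterase that degrades cyclic AMP, lay at 9.0, 9.1, 9.1, 9.0 and 9.1 in Sham and at 8.7, 8.9, 8.8 and 8.9 in NH3+LPS. This difference of -0.23 (SE 0.06) was small. The groups did not overlap, which a choice by small p favours.

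The promoters of Gpr3 and Sstr2 are shown for the same motifs, with matches in capitals, because these genes had the smallest p among the lower ones.
Gpr3, chr5:150698477-150698776, minus strand: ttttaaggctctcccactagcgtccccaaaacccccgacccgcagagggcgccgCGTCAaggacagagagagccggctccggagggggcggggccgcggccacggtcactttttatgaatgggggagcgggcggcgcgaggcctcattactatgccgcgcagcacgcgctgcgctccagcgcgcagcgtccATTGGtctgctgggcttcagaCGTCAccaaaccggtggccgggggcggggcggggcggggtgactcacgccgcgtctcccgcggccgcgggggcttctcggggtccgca
Sstr2, chr10:99163103-99163402, plus strand: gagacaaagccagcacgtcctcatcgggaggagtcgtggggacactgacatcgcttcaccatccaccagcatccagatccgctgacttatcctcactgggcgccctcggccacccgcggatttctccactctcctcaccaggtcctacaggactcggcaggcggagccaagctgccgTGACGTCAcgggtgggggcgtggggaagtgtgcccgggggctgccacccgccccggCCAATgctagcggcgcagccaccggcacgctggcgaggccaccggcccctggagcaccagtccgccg
The Sstr2 window held 1 full cyclic AMP response element and the Gpr3 window 2 matches to the short form, which 21.2% of all promoters hold. The RefSeq table held a promoter for 24 of 29 genes of smallest p or widest difference. Among the 12 genes of smallest p in each direction, the short form was found in 3 of the 11 matched higher genes and in 2 of the 9 matched lower genes. The E-box was found in 0 of either. It is held by 6.42% of all promoters, so its absence from so few windows is not a result. No promoter was matched for Nr4a3, Grpr, Adam7, Dusp4 and Mab21l2.

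Immediate early genes, mostly transcription factors induced within minutes by neuronal activity and calcium or cyclic AMP signals, were lower for a set of members. Nr4a3, an orphan nuclear receptor, lay at 6.7, 6.8, 8.4, 7.4 and 7.6 in Sham and at 5.1, 6.1, 6.1 and 6.2 in NH3+LPS. The groups did not overlap, array 1 of NH3+LPS was lowest and array 3 of Sham highest. The difference was -1.50 (SE 0.38), a level 0.352 times that of Sham, with a limma adjusted p of 0.992. Its relatives Nr4a2 and Nr4a1 differed by -1.27 (SE 0.44) and -1.10 (SE 0.39). Fos, a partner in the AP-1 factor, lay at 6.7, 7.2, 8.0, 6.8 and 6.9 in Sham and at 5.2, 7.1, 6.1 and 5.4 in NH3+LPS, a difference of -1.17 (SE 0.40). Array 2 of NH3+LPS lay within the Sham range and the other 3 below it. Of the 18 immediate early genes, 13 were lower and 5 higher, with a median of -0.16; it was -0.10 without array 1 of NH3+LPS and -0.30 without array 2 of NH3+LPS. Jun, Arc and Egr3 differed by 0.01, 0.05 and 0.05. The median of the list against Sham was also below 0 in PCA (-0.11), NH3 (-0.07) and LPS (-0.13), and NH3+LPS minus PCA had a median of -0.062.

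Brakes on MAP kinase signalling, which are themselves induced by that pathway, were lower for 14 of 15 members, where 50% of all genes were lower. The median was -0.165 on the log2 scale, -0.10 without array 3 of Sham and -0.25 without array 1 of Sham. Against the same Sham arrays, 8 members were higher in PCA (median 0.02), 2 in NH3 (-0.14) and 3 in LPS (-0.08). The median of the list was 0.015 for NH3+LPS minus NH3 and -0.205 for NH3+LPS minus PCA. Dusp4, a phosphatase that inactivates MAP kinases in the nucleus, lay at 6.2, 6.7, 6.1, 6.9 and 6.6 in Sham and at 5.8, 6.2, 5.9 and 5.7 in NH3+LPS. Array 2 of NH3+LPS overlapped with 2 Sham arrays, and the difference was -0.60 (SE 0.17, limma adjusted p = 0.992). Spred1, which keeps Ras inactive at the membrane, lay at 8.8, 8.6, 9.0, 9.0 and 9.1 in Sham and at 8.5, 8.5, 8.7 and 8.6 in NH3+LPS, a difference of -0.33 (SE 0.09). Array 2 of Sham lay within the NH3+LPS range. Dusp1 differed by -0.67 (SE 0.30), of which array 3 of Sham, at 10.3 against 9.1 to 9.3 in the others, carried a part: without it the difference was -0.45. Spry4 and Spry2, from the Sprouty family, differed by -0.50 and -0.19, and Dusp6 by 0.06; Spry2 differed by -0.11 without array 2 of NH3+LPS.

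The clock gene Per1, a repressor in the circadian feedback loop, lay at 8.3, 8.3, 8.8, 8.3 and 8.4 in Sham and at 7.7, 7.8, 7.9 and 8.0 in NH3+LPS. Sham and NH3+LPS did not overlap and differed by -0.57 (SE 0.16, limma adjusted p = 0.992). Its partner Per2 lay at 7.4, 7.3, 8.0, 7.5 and 7.9 in Sham and at 6.6, 6.7, 7.3 and 7.2 in NH3+LPS, a difference of -0.67 (SE 0.20). Array 3 of NH3+LPS equalled the lowest Sham array and the others were below it. Dbp, a clock output factor, differed by -0.26 (SE 0.12). Of 17 clock genes 11 were lower and 6 higher with a median of -0.06, which was -0.125 without array 2 of Sham and -0.025 without array 4 of Sham. The sources used here do not give the time of day at which tissue was taken. Rbm3 and Cirbp, RNA-binding proteins induced by cold, were the only 2 genes of their list; Rbm3 lay at 9.3, 10.0, 9.4, 9.6 and 9.3 in Sham and at 10.1, 10.1, 9.9 and 9.9 in NH3+LPS, a difference of 0.48 (SE 0.18). Array 2 of Sham lay among the NH3+LPS arrays and the other 4 lay below them. Cirbp differed by 0.28 (SE 0.15).

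Per1 and Dusp1 also stand in the list of glucocorticoid response genes, of which 10 of 15 were lower, with a median of -0.15 that was -0.067 without array 1 of NH3+LPS. Hif3a, which is induced by glucocorticoids, differed by -0.37 (SE 0.15), and Ddit4, an inhibitor of the growth kinase mTORC1 that glucocorticoids also induce, by 0.24 (SE 0.11). Chaperones of the endoplasmic reticulum were lower for 15 of 19 members and higher for 2, with a median of -0.065 that was -0.100 without array 2 of Sham or without array 3 of NH3+LPS. Sdf2l1 differed by -0.35 (SE 0.15), Xbp1, a transcription factor of the unfolded protein response, by -0.27 (SE 0.14) and Hspa5, the main chaperone of that compartment, by -0.20 (SE 0.11). Cytosolic and mitochondrial heat shock genes were lower for 16 of 19 members, with a median of -0.09 that was -0.05 without array 1 of Sham. Stip1, which links the chaperones Hsp70 and Hsp90, lay at 10.2, 10.1, 10.4, 10.1 and 10.3 in Sham and at 10.0, 10.0, 9.9 and 10.1 in NH3+LPS, a difference of -0.22 (SE 0.09). The small heat shock protein Hspb1 differed by -0.16 (SE 0.21), by -0.33 without array 2 of Sham and by -0.07 without array 1 of NH3+LPS.

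**Figure D4:**
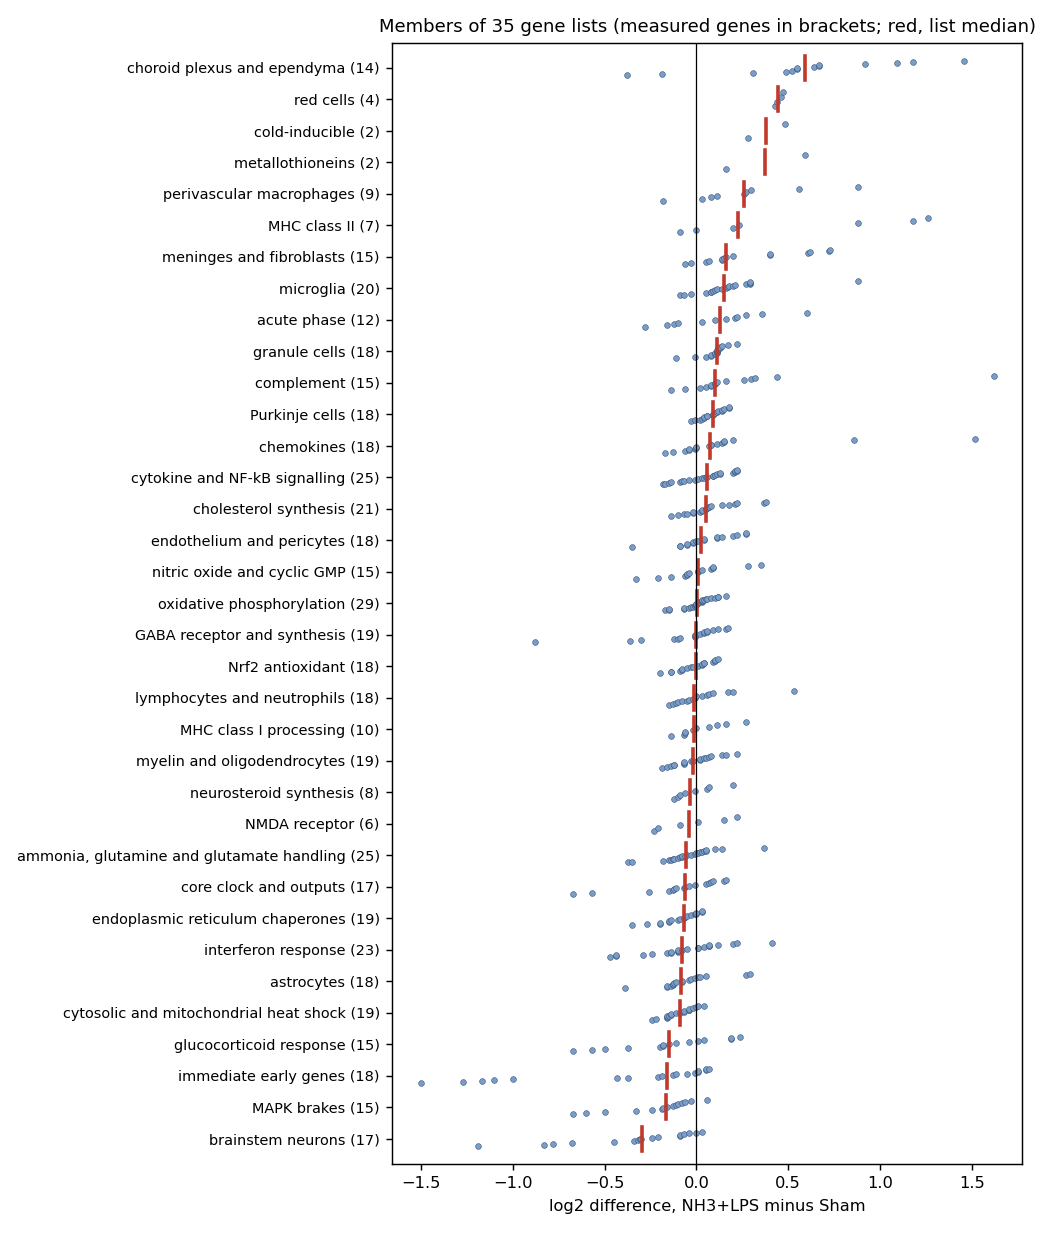
Log2 difference of NH3+LPS minus Sham (x axis) for every measured member of 35 gene lists (rows, with the number of members); points are genes and red bars list medians. The choroid plexus list has the highest median, 0.593, and the brainstem list the lowest, -0.295, and both depend on 1 array each.

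Metallothioneins, small proteins that bind zinc and copper, had few rows of their own. LOC100362769, whose symbol also stands beside Mt1a on other rows, lay at 7.8, 7.4, 7.5, 7.5 and 7.6 in Sham and at 8.1, 8.2, 8.1 and 8.2 in NH3+LPS. Every NH3+LPS array lay above every Sham array, and the means differed by 0.59 (SE 0.15, limma adjusted p = 0.992). Both rows that carry Mt1a together with LOC100362769 differed by 0.89 and 0.90, and both rows of Mt2A with RGD1562885 by 0.59 and 0.64. The brain-enriched Mt3 differed by 0.16 (SE 0.26), and array 1 of Sham had its highest level, 9.5. Without that array the difference was 0.40, and without array 3 of Sham it was 0.03.

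Genes that handle ammonia, glutamine and glutamate showed no shared direction, with 9 of 25 higher, 16 lower, a median of -0.055 on the log2 scale (0.00 without array 1 of Sham) and no member at an unadjusted p under 0.05. Glul, the glutamine synthetase that fixes ammonia, had no row under its own symbol alone and is not analysed here. Slc38a3, a glutamine exporter of astrocytes, lay at 10.0, 9.2, 8.8, 9.1 and 9.3 in Sham and at 9.8, 9.6, 9.7 and 9.5 in NH3+LPS, a difference of 0.37 (SE 0.22). Array 1 of Sham was above every NH3+LPS array and the other 4 were below, and without array 1 of Sham the difference was 0.55. Gls2, a glutaminase, differed by -0.14 (SE 0.08), and by -0.07 without array 1 of Sham. Of 18 astrocyte markers 13 were lower and 5 higher with a median of -0.082, which was 0.025 without array 1 of Sham. The potassium channel gene Kcnj10 differed by -0.39 (SE 0.30), and by -0.07 without array 1 of Sham, where it lay at 10.4 against 8.6 to 9.2 in the rest of the group. Aqp4, the astrocyte water channel, differed by -0.16 (SE 0.13), and by -0.07 without array 1 of Sham.

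Receptors for the main transmitters had medians near that of all genes. Of 6 NMDA receptor genes 3 were higher and 3 lower, with Grin2c, the subunit of mature granule cells, at a difference of 0.22 (SE 0.11), or 0.12 without array 1 of Sham. Of 19 genes of GABA receptors and synthesis 9 were higher and 9 lower, with a median of 0.00. Gabra3 differed by -0.30 (SE 0.13), and Gabra5 by -0.88 (SE 0.51), with a further row of Gabra5 at -0.01. Gabra5 lay at 7.8, 4.6, 4.5, 4.8 and 7.1 in Sham and at 4.2, 5.6, 5.2 and 4.5 in NH3+LPS. Arrays 1 and 5 of Sham lay above, the other 3 lay within the NH3+LPS range, and without array 1 of Sham the difference was -0.37. Arrays 1 and 5 are also the Sham arrays with the highest brainstem marker means, 1.17 and 0.45, and the part of brainstem tissue in this difference was not tested. Of 15 genes of nitric oxide and cyclic GMP signalling 8 were higher and 7 lower, with Pde1c, a calmodulin-dependent phosphodiesterase, at 0.35 (SE 0.18). Neurosteroid synthesis genes (3 of 8 higher, median -0.033) and oxidative phosphorylation genes (15 of 29 higher, median 0.005) also lay near the median of all genes. When 1 array was left out, the medians ranged from -0.063 to 0.030 for neurosteroid synthesis, from -0.05 to 0.025 for nitric oxide and cyclic GMP, and from -0.025 to 0.05 for oxidative phosphorylation. Cholesterol synthesis genes were higher for 15 of 21 members, with a median of 0.05 that was 0.15 without array 1 of Sham and 0.025 without array 3 of Sham; Insig1, which holds back their activator, differed by 0.38 (SE 0.18) and the synthase Lss by 0.18 (SE 0.09).

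Other tissue that a cerebellar sample can hold was followed with marker lists. Choroid plexus and ependyma markers were higher for 12 of 14 members with a median of 0.593, and without array 3 of NH3+LPS the median was -0.167. Ttr, the thyroid hormone carrier secreted by the choroid plexus, lay at 8.2, 5.9, 6.8, 5.8 and 5.5 in Sham and at 6.0, 6.1, 12.5 and 5.9 in NH3+LPS. Array 3 of NH3+LPS stood alone, and without it the difference of 1.18 (SE 1.43) was -0.44. Kl and Kcnj13, also of the choroid plexus, differed by 0.92 (SE 0.69) and 1.46 (SE 0.91), and without that array by -0.11 and 0.59. Without array 1 of NH3+LPS, Kcnj13 differed by 2.36. Brainstem neuron markers were lower for 15 of 17 members and higher for 1, with a median of -0.295, which was -0.075 without array 1 of Sham. Slc6a5, the glycine transporter of inhibitory neurons, lay at 9.1, 7.4, 7.5, 7.6 and 8.3 in Sham and at 7.2, 7.1, 7.1 and 7.4 in NH3+LPS. Array 1 of Sham was highest, and the difference was -0.78 (SE 0.23), or -0.50 without that array. Hoxb3, a patterning factor of the hindbrain, differed by -0.45 (SE 0.14), and Chat, which makes acetylcholine, by -0.24 (SE 0.10) at a mean level under 5.

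Meninges and fibroblast markers were higher for 13 of 15 members, with a median of 0.16 that was 0.573 without array 1 of NH3+LPS and -0.053 without array 2 of NH3+LPS. Slc6a13, a transporter of leptomeningeal cells, lay at 6.7, 6.1, 8.1, 7.6 and 9.0 in Sham and at 6.4, 9.4, 8.1 and 9.0 in NH3+LPS. The groups overlapped over most of their range. The myelin list had a median of -0.02, which was 0.275 without array 1 of Sham and -0.153 without array 3 of NH3+LPS. Purkinje cell and granule cell markers were each higher for 16 of 18 members, with medians of 0.09 and 0.11; without array 1 of Sham, which was low in both, the medians were -0.037 and -0.025. All 4 red cell genes were higher, with a median of 0.445; Hbb, a beta globin, differed by 0.47 (SE 0.27), or 0.31 without array 2 of NH3+LPS, and Slc4a1, the anion exchanger of the red cell membrane, by 0.46 (SE 0.21). Of 18 endothelial and pericyte genes 10 were higher and 8 lower; Rgs5, a pericyte marker, differed by -0.35 (SE 0.16), and by -0.20 without array 1 of Sham.

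Other genes of smallest p were scattered over functions. Higher in NH3+LPS were C1galt1c1, the chaperone of the enzyme that extends O-linked glycans (0.58, SE 0.15), the endosomal sorting nexin Snx4 (0.29, SE 0.08), Rsrc2 (0.27, SE 0.08) and Ssbp1, which binds single-stranded mitochondrial DNA (0.27, SE 0.08). Desi2 (deposited as Pppde1) lay at 8.9, 9.0, 9.0, 9.0 and 8.9 in Sham and at 9.2, 9.2, 9.1 and 9.2 in NH3+LPS, so that a difference of 0.22 (SE 0.06) separated the groups by a single step of the rounded values. Adam7, a member of the ADAM family known from the epididymis, differed by 0.23 (SE 0.06), with levels of 2.9 to 3.1 in Sham and 3.2 to 3.3 in NH3+LPS. Among genes whose groups did not overlap, Klhl25 (0.50, SE 0.21), Sspn, of the dystrophin complex (0.42, SE 0.13), and Adam4l1 (0.36, SE 0.11) had some of the widest differences upward.

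Lower in NH3+LPS, besides the genes above, was Grpr, the receptor for gastrin-releasing peptide, with log2 levels of 4.1, 3.9, 3.5, 3.7 and 4.7 in Sham and 3.2, 3.3, 3.3 and 3.3 in NH3+LPS. The groups did not overlap and differed by -0.70 (SE 0.18, limma adjusted p = 0.992). The sugar transferase gene Galnt14 (-0.38, SE 0.10), the alpha tubulin gene Tuba3b (-0.37, SE 0.09) and the profilin gene Pfn4 (-0.27, SE 0.08) did not overlap between the groups either. Levels were low for 2 of these: Tuba3b lay at 3.3 to 3.5 in NH3+LPS, and Pfn4 had a mean level under 5 over the arrays. Reg3b, a secreted lectin, differed by -0.46 (SE 0.13) with 1 NH3+LPS array at 3.5 and 1 at 3.4, the lowest Sham level. Mab21l2 and Hey2 were named for their size among genes whose groups did not overlap, so their lack of overlap follows from the choice. Mab21l2 lay at 8.2, 8.5, 9.1, 8.7 and 8.3 in Sham and at 8.1, 8.0, 8.0 and 7.7 in NH3+LPS, a difference of -0.61 (SE 0.22). Hey2, a Notch target, differed by -0.42 (SE 0.20). The kinase Lyn, which acts in myeloid cells, differed by 0.00 (SE 0.10). Orm1, a plasma acute phase protein, differed by 0.22 (SE 0.10) at low levels, 3.1 to 3.2 in NH3+LPS. Of 12 acute phase genes 8 were higher and 4 lower with a median of 0.128, which was 0.025 without array 2 of Sham. Of 18 antioxidant genes of the Nrf2 pathway 9 were higher and 9 lower.

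The other shunted groups place these values, with the same 5 Sham arrays shared by all 4 comparisons. C3 differed from Sham by 0.12 (SE 0.32) in PCA, -0.16 (SE 0.32) in NH3 and 1.84 (SE 0.32) in LPS, beside 1.62 in NH3+LPS. The LPS difference passed (limma adjusted p = 0.03), one of 6 calls among 18161 genes in LPS against Sham (0.033%), while PCA and NH3 against Sham had 0 calls (0%) with 651 and 1101 genes at an unadjusted p under 0.05. The 6 calls in LPS became 0 without array 4 of Sham, 2 without array 3 of Sham and 3 without the 4 arrays of the series with choroid plexus markers. Adgre1 differed by 0.26, 0.12 and 1.06 in PCA, NH3 and LPS, the last with a limma adjusted p of 0.0198. RT1-Da differed by 0.24, 0.14 and 0.86 and Cd74 by 0.18, -0.14 and 0.86 in the same order. Sstr2 differed by -0.08, -0.52 and -0.16, Gpr3 by -0.06, -0.38 and -0.16, and Dusp4 by 0.10, -0.86 and -0.16, so that NH3 was the group nearest to NH3+LPS for these 3 genes. Per2 differed by 0.46 in PCA, -0.36 in NH3 and 0.38 in LPS, beside -0.67 in NH3+LPS.

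**Figure D5:**
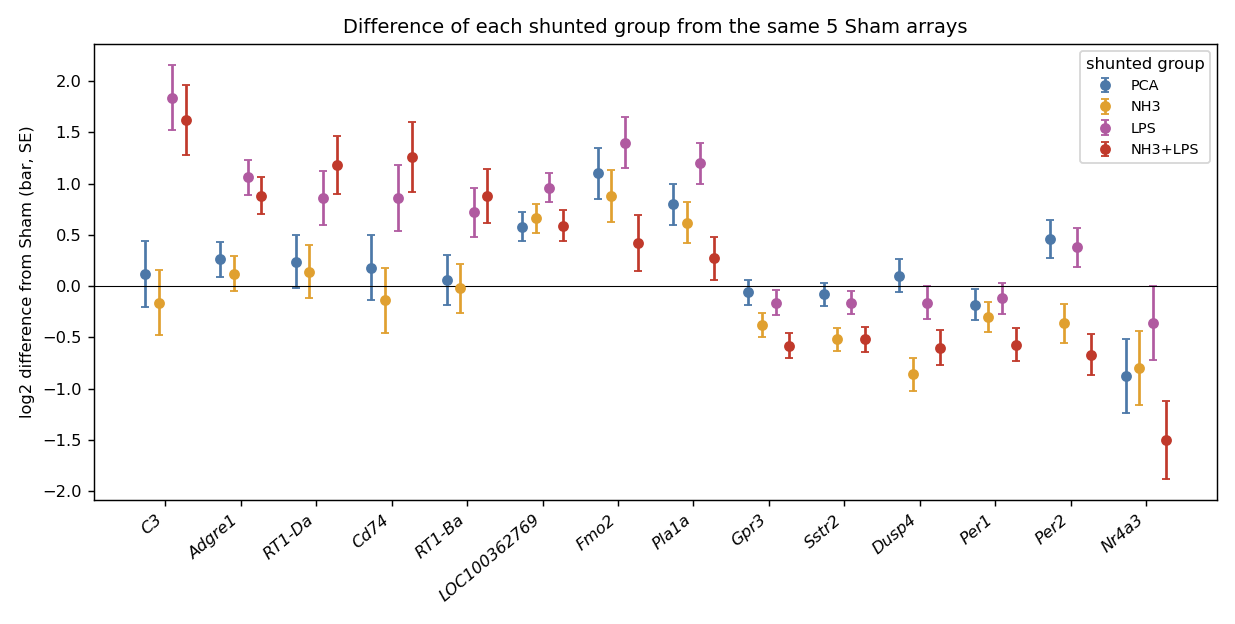
Log2 difference of each shunted group from Sham (y axis; points with SE bars from the fit) for 14 genes (x axis); the 5 Sham arrays are shared by all points of a gene. C3 and Adgre1 lie high in LPS and NH3+LPS, Sstr2 and Dusp4 low in NH3 and NH3+LPS, and Fmo2 and Pla1a are lower in NH3+LPS than in the other shunted groups.

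The remaining 4 of the 6 genes called in LPS against Sham were LOC100362769, Pla1a, Fmo2 and Cbr4; the last 3 are named here after their values were seen. LOC100362769 differed from Sham by 0.58 in PCA, 0.66 in NH3, 0.96 in LPS and 0.59 in NH3+LPS. Fmo2, a flavin monooxygenase, differed by 1.10, 0.88 and 1.40 in PCA, NH3 and LPS, and by 0.42 (SE 0.27) in NH3+LPS. Its log2 levels in Sham were 6.1, 5.5, 5.5, 5.4 and 5.3, and in NH3+LPS 5.6, 5.9, 6.3 and 6.1, so that array 1 of Sham lay among the NH3+LPS arrays. Pla1a, a phosphatidylserine lipase, differed by 0.80, 0.62 and 1.20, and by 0.27 (SE 0.21) in NH3+LPS, or 0.15 without array 2 of NH3+LPS. Cbr4, a mitochondrial reductase, differed by 0.10, 0.04 and 0.48, and by 0.26 (SE 0.09) in NH3+LPS.

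Direct comparisons of NH3+LPS with the other shunted groups, which use no Sham array in the difference, called 0 of 18161 genes against PCA (0%), 0 against NH3 (0%) and 0 against LPS (0%) with limma, and 755, 525 and 818 genes had an unadjusted p under 0.05. With array weights, limma called 4 genes against PCA and 2 against NH3. The lowest weights were 0.272 for array 1 of Sham, which enters neither difference, and 0.458 for array 3 of PCA. Per2 had the smallest p against PCA (-1.13, SE 0.20, limma adjusted p = 0.139) and against LPS (-1.05, SE 0.20, limma adjusted p = 0.332). Its levels were 6.6 to 7.3 in NH3+LPS, 7.8 to 8.3 in PCA and 7.7 to 8.3 in LPS, without overlap, whereas NH3, at 6.7 to 7.9, overlapped. C3 differed by 1.50 (SE 0.34) from PCA, by 1.78 (SE 0.34) from NH3 and by -0.23 (SE 0.34) from LPS. Against LPS, Cd74 differed by 0.41 (SE 0.34), RT1-Da by 0.32 (SE 0.28), Pla1a by -0.93 (SE 0.21) and Fmo2 by -0.98 (SE 0.27), with limma adjusted p of 0.994, 0.994, 0.687 and 0.785. Spred1 differed from PCA by -0.44 (SE 0.09, limma adjusted p = 0.368).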

How the data were processed

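Expression was measured on Affymetrix arrays from total RNA of rat cerebellum. The authors deposited log2 values, which per the submitters' processing notes were produced by RMA. The sources used here name no array design, annotation build or filter. The values are rounded to 1 decimal, and the annotated table held the same values as the series matrix (0 differences). Rows with several symbols (1521) or none (8157) were left out. Symbols were updated through the rat RefSeq table: 14126 were current, 3362 were updated and 1850 were kept as given. For 817 genes with more than 1 row, the row of highest mean was kept.

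All 24 arrays entered 1 fit with a mean per group (limma 3.58.1, R 4.3.3, 19 residual and 4.39 prior degrees of freedom). All p-values are two-sided and were adjusted by the Benjamini-Hochberg method across the 18161 genes, with calls at 0.05. Arrays have no read depth. Their number limits the precision, with a median SE of 0.105 for NH3+LPS minus Sham. Standard errors and p-values come from this shared fit, and SDs from the arrays of a group. A list's mean per array is taken after centring each gene on its mean over the 24 arrays.

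The genes named are the 12 of smallest p in each direction, the 6 of largest difference in each direction among those without overlap and with a group mean of at least 6, in each list the members of smallest p, at most 4, and 11 genes of prior interest. Symbols such as LOC or RGD were left out of the first 2 parts. Not every gene so named is described. Other list members named for contrast (RT1-DMa, RT1-DMb, Ciita, Jun, Arc, Egr3, Spry4, Dusp6), the shared-symbol rows and the genes called in LPS against Sham were chosen after their values were seen. The members, gene lists and alternatives were chosen with earlier results of these data known. The fit was tested on simulated data. No 2 arrays were duplicates: the SD of the difference between 2 arrays was at least 0.211, and at least 13664 genes differed.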

Additional observations from a re-analysis of the deposited data

Results flagged for a closer look

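Single arrays stood far from the others of their group, relative to the range of the group, in 26 of 245 comparisons over 88 named genes and 35 gene lists. The threshold is set so that about 1 in 20 groups of independent, unrounded values pass it by chance; the values here are rounded to 1 decimal and the genes were chosen by p, so the chance rate here is not known. Array 1 of Sham accounted for 9 of these and array 3 of NH3+LPS for 7. In array 1 of Sham the list means, in centred log2 units, were 0.28 for interferon response, 0.21 for metallothioneins, 0.19 for ammonia, glutamine and glutamate handling, 0.15 for the NMDA receptor, -0.46 for Purkinje cells and -0.57 for granule cells. That array also held the highest Sham levels of Rgs5 (10.7), Gls2 (8.6) and Fmo2 (6.1). Array 3 of Sham was highest for Per1 (8.8) and Dusp1 (10.3), and array 2 of Sham was lowest for Ptprc (4.4).

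In array 3 of NH3+LPS the mean of choroid plexus and ependyma markers was 2.35 and that of Purkinje cells 0.00, with Ttr at 12.5 and Kl at 9.6. Array 1 of NH3+LPS was lowest of its group for Adgre1 (6.2), Nr4a3 (5.1) and Nr4a2 (7.2). The remaining 7 had the other 3 arrays at the same rounded value: Tuba3b at 3.3, Desi2 at 9.1 and Orm1 at 3.1 in array 3, Grpr at 3.2 in array 1, Rsrc2 at 7.7 in array 2, and Ssbp1 and Sspn at 7.3 in array 4 of NH3+LPS.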

How the results depend on the processing

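For NH3+LPS against Sham, limma called 0 genes in each of 21 alternatives (9 that left out 1 array and 12 others), with a smallest adjusted p between 0.0788 and 0.994 and 491 to 1140 genes at an unadjusted p under 0.05. Other comparisons moved. Array weights gave 4 calls for NH3+LPS against PCA and 2 against NH3. The 6 calls for LPS against Sham ranged from 0 to 8 when 1 array was left out and were 3 without the 4 arrays with choroid plexus markers. Of 1730 values of 87 named genes under these alternatives, 1724 kept their direction, 5 reversed and 1, for Ttr without array 1 of Sham and array 3 of NH3+LPS, was 0.00. Ttr reversed to -0.44 and Kl to -0.11, both without array 3 of NH3+LPS and without the 4 choroid plexus arrays, which include it; leaving out 1 array at a time gave -0.44 to 1.76 for Ttr and -0.11 to 1.29 for Kl. Kl was -0.16 without array 1 of Sham and array 3 of NH3+LPS, an alternative added after the data were seen. Of 700 list medians under the alternatives, 11 moved by more than the SD of the list's means between arrays within the groups. Outlying arrays widen that SD, so the count does not measure how stable the medians are. The choroid plexus median, 0.593 and -0.167 without array 3 of NH3+LPS, was not counted as moved. The labels number samples within groups only. Same-numbered deviations of Sham and NH3+LPS correlated at -0.13, -0.007, -0.071 and 0.17, which does not show whether the samples are paired. The mean of oxidative phosphorylation genes was higher in array 1 than in the last array of every group. In centred log2 units it was 0.16 against -0.12 in Sham and 0.04 against -0.08 in NH3+LPS. With the replicate number as a block, 0 genes were called for NH3+LPS against Sham (smallest adjusted p 0.0788) and 1 for NH3+LPS against NH3. No depth is recorded, so the array number sets the limit.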

Other observations

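The rows left out of the comparison were fitted in the same way. Among the 1521 rows with several gene symbols and the 8157 rows with no symbol, limma called 0 rows in NH3+LPS against Sham, with a smallest adjusted p of 0.994 in either set. A row shared by Nr1d1, a repressor of the clock, and Thra, a thyroid hormone receptor, differed by -0.33 (SE 0.12), and the row listed as Thra with Nr1d1 differed by -0.05 (SE 0.08). The row shared by the complement genes C4-2 and C4b differed by 0.11 (SE 0.30), and the row of C2 and Cfb by -0.03 (SE 0.15).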
